A study of Saccharomyces cerevisiae with 6 samples.

Results

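The genes described here are nuclear genes of *Saccharomyces cerevisiae* that code for proteins of the mitochondrial ribosome. They were taken as a named set (MRPL, MRP, MRPS, RSM, *IMG1*, *IMG2* and *RML2* genes) among ORFs outside chromosomes XII and XIII. They are 55 of the 6212 ORFs listed in the data. The genes were picked by name and not by their own values, but with earlier results of these data known. Of these, 33 belong to the large subunit and 22 to the small subunit. The question was how their transcripts responded to rapamycin in wild type cells and in cells lacking the phosphatase Ptc6 or both Ptc1 and Ptc6. The cultures were wild type BY4741 cells, a *ptc6* mutant and a *ptc1 ptc6* double mutant in the same BY4741 background, grown in rich glucose medium (YPD) at 28°C. Each culture was divided, and one portion received 200 ng/ml rapamycin for 1 h while the other was mock-treated with the drug vehicle, so that every strain had a control of its own genotype. Treated and mock-treated RNA were compared on 2 arrays per strain with opposite dyes, 6 arrays in all. Neither the labels nor the methods state whether the arrays of a strain came from separate cultures. They were therefore counted as 1 replicate and no difference between strains was tested. The spread given below (SD of 2 arrays) may be only technical, and differences between cultures and between strains cannot be told apart. In such ratios of total RNA, less message per cell and fewer cells carrying it cannot be told apart either.

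The mitochondrial ribosome translates the few messages encoded in mitochondrial DNA, nearly all of them subunits of the respiratory chain and of the ATP synthase. Its proteins are made in the cytosol from nuclear genes and imported, and they comprise counterparts of bacterial ribosomal proteins together with proteins found only in mitochondria. In contrast to the cytosolic ribosomal protein genes, which depend on TORC1 through Ifh1, Sfp1 and Sch9, the mitochondrial set is known in *S. cerevisiae* to follow respiratory growth, and many of its messages are bound by the RNA-binding protein Puf3. Rapamycin inhibits TORC1. Ptc6 is a type 2C phosphatase located in mitochondria, whereas Ptc1 is cytoplasmic and nuclear.

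Values are log2 ratios of rapamycin-treated over mock-treated cells, so that -1 is a 2-fold decrease. A strain's value is the mean of its 2 arrays and was taken only where both had a measurement. All 55 genes are listed, and 37 of them (67.3%) had a value on all 6 arrays, against 50.1% of all ORFs. These 37 were 23 large subunit and 14 small subunit genes. A further 13 had a value on 1 to 5 arrays, and 5 had none (*MRPL13*, *MRPL17*, *MRPL25*, *MRP10* and *RSM27*). Both arrays gave a value for 38 of the genes in wild type cells, for 46 in *ptc6* cells and for 48 in *ptc1 ptc6* cells. Spots of small diameter or dim fluorescence were left out by the authors, so genes without a value have no measured level here.

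As a check of the strains, *PTC6* (YCR079W) had log2 ratios of 1.11 and 0.62 in wild type cells and no value on the 4 mutant arrays. *PTC1* (YDL006W) was measured once, at -0.28 on wild type array 2. It also lacked a value on the *ptc6* arrays, where the gene is present, so it gives no check of the double mutant. On chromosomes XII and XIII the ratios of wild type and *ptc1 ptc6* cells correlated across ORFs with a Pearson r of only 0.0156 and 0.543, whereas on each other chromosome r was at least 0.939. The set of 55 genes leaves out these chromosomes by definition. Across the genes of the mitochondrial ribosome, which are not independent replicates, both arrays of a strain correlated with r = 0.845 in wild type (38 genes), 0.775 in *ptc6* (46 genes) and 0.604 in *ptc1 ptc6* cells (48 genes). These values lie below those over all ORFs (0.969, 0.952 and 0.925), and the mitochondrial ribosome also covered a narrower range of log2 ratios. The median absolute difference between the arrays was 0.23 log2 units in wild type, 0.17 in *ptc6* and 0.23 in *ptc1 ptc6* cells, so that many of the differences described below are of the size of this spread between arrays. The 37 genes measured throughout were lower on the array with rapamycin RNA in Cy3 in every strain, with medians of -0.36, -0.13 and -0.22 against -0.11, -0.02 and -0.06 in Cy5 (wild type, *ptc6* and *ptc1 ptc6*). The part of the dye in the results was not tested.

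In wild type cells the mitochondrial ribosome responded little to 1 h of rapamycin. Of 38 genes with a value, 33 stayed within 2-fold of the mock-treated cells, 5 were repressed more than 2-fold (13.2%) and 0 were induced. Over all ORFs with a value, 18.8% were repressed and 14.7% induced, and outside chromosomes XII and XIII these shares were 18.1% and 14.7%. The share of repressed genes was thus near the background, whereas no induced gene was found. The median log2 ratio was -0.19 (-0.35 on array 1 and -0.13 on array 2), the quartiles were -0.52 and 0.20, and 25 of the 38 genes (65.8%) lay below 0. All ORFs had a median of 0.02 with quartiles of -0.66 and 0.60, and 49.3% of them lay below 0. The gap between both wild type arrays was thus as large as the gap between the mitochondrial ribosome and all ORFs.

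**Figure D1:**
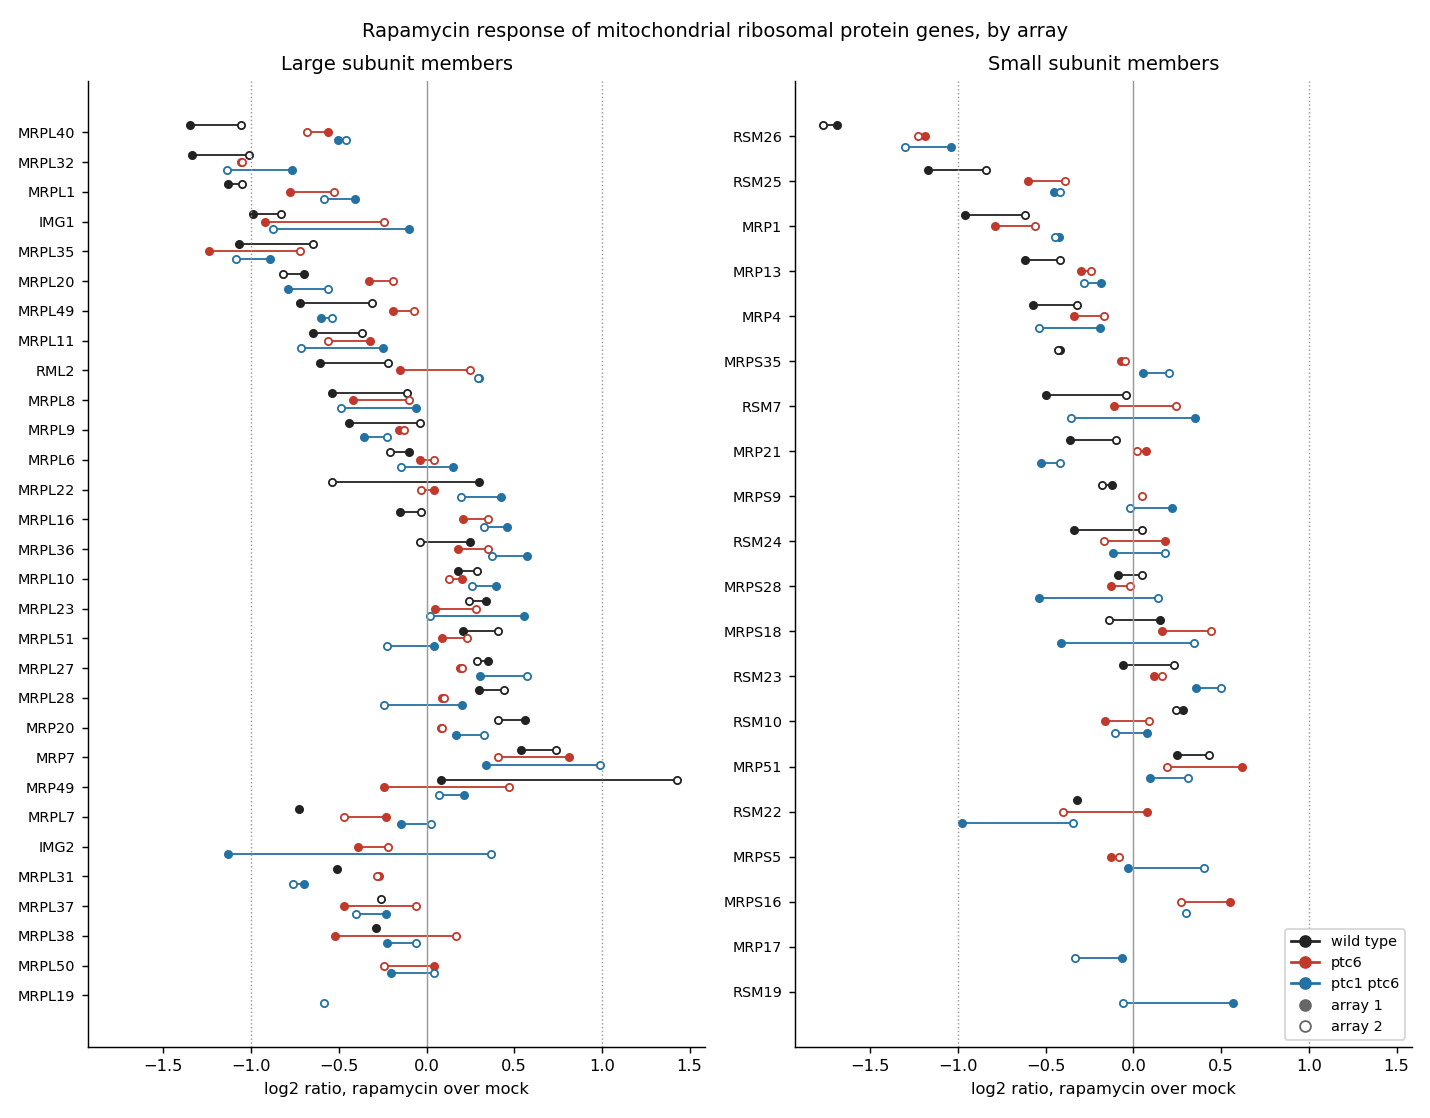
Log2 ratio of rapamycin-treated over mock-treated cells (x axis) of each gene of the mitochondrial ribosome with any value, large subunit on the left and small subunit on the right, ordered by the wild type mean. Filled and open points are arrays 1 and 2 of a strain and dotted lines mark 2-fold. Values ran from -1.77 for *RSM26* to 1.43 for *MRP49*, and most genes lay between the dotted lines in all strains.

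The strongest repression was that of *RSM26* (YJR101W), which codes for a mitochondria-specific protein of the small subunit with similarity to superoxide dismutases. Its log2 ratios were -1.69 and -1.77 in wild type, -1.19 and -1.23 in *ptc6*, and -1.04 and -1.30 in *ptc1 ptc6* cells. All 6 arrays were past 2-fold, and wild type values were below those of the 4 mutant arrays. The mean decrease was 3.32-fold in wild type, 2.31-fold in *ptc6* and 2.25-fold in *ptc1 ptc6* cells. *MRP1* (YDR347W), the other superoxide dismutase-like protein of this subunit, gave -0.96 and -0.62 without the mutations and did not reach 2-fold. In the mutants its values were -0.79 and -0.56 (*ptc6*) and -0.43 and -0.45 (*ptc1 ptc6*).

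*RSM25* (YIL093C), another mitochondria-specific protein of the small subunit, was the second gene of this subunit past 2-fold, with -1.17 and -0.84 in wild type cells. It had -0.60 and -0.39 in *ptc6* and -0.45 and -0.42 in *ptc1 ptc6* cells, without overlap with the wild type arrays. Its wild type mean of -1.01 ± 0.23 (SD, n = 2 arrays) lies at the threshold, and array 2 alone did not pass it. *MRP13* (YGR084C) followed with a wild type mean of -0.52 ± 0.14, and means of -0.27 in *ptc6* and -0.23 in *ptc1 ptc6* cells.

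In the large subunit 3 genes were repressed more than 2-fold in wild type cells, and all 3 code for counterparts of bacterial proteins. *MRPL40* (YPL173W), related to bacterial L24 at the exit of the peptide tunnel, had log2 ratios of -1.35 and -1.06 in the wild type, -0.56 and -0.68 after loss of *PTC6*, and -0.50 and -0.46 in the double mutant. The decrease of 2.31-fold in wild type cells thus became 1.54-fold and 1.39-fold in the mutants, and wild type and mutant arrays did not overlap. *MRPL1* (YDR116C), the counterpart of L1, also had higher values in the mutants, with -1.13 and -1.05 in wild type, -0.78 and -0.53 in *ptc6*, and -0.41 and -0.58 in *ptc1 ptc6* cells.

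*MRPL32* (YCR003W) codes for the counterpart of L32, whose precursor is processed in mitochondria by the m-AAA protease before it joins the ribosome. Its repression differed less between wild type and mutant cells than that of *MRPL40* and *MRPL1*. Its values were -1.34 and -1.01 in wild type, -1.06 and -1.05 in *ptc6*, and -0.77 and -1.14 in *ptc1 ptc6* cells. Those of either mutant overlapped the wild type values. With arrays of the same dye compared, *ptc1 ptc6* cells were still higher than wild type cells, by 0.20 in Cy3 and 0.24 in Cy5, whereas *ptc6* cells differed by 0.28 and -0.04. *MRPL35* (YDR322W), a mitochondria-specific protein named here after its values were seen, was nearly equal in the 3 strains. Its means were -0.86 ± 0.30 in wild type, -0.98 ± 0.37 in *ptc6* and -0.99 ± 0.14 in *ptc1 ptc6* cells (SD, n = 2 arrays each). *IMG1* (YCR046C), the counterpart of L19 that is required for the integrity of the mitochondrial genome, had -0.99 and -0.83 in wild type cells. In the mutants its arrays lay far apart, at -0.92 and -0.24 in *ptc6* and at -0.10 and -0.88 in *ptc1 ptc6* cells, which leaves no readable difference between strains.

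The 5 repressed genes lie on 5 chromosomes, and no gene next to them with a value was past 2-fold. *AIM25* and *VPS25*, on either side of *RSM26*, had wild type means of 0.80 and -0.31, and *CDC10* and *YCP4*, beside *MRPL32*, had 0.59 and 0.95. *LYS12*, beside *RSM25*, had 0.42 and *TMA64*, beside *MRPL1*, had -0.12. Neither neighbour of *MRPL40* had a wild type value on both arrays.

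At the other end, no gene was past 2-fold induction in the mean of any strain. The highest wild type mean was that of *MRP49* (YKL167C), a mitochondria-specific protein of the large subunit, but its arrays gave 0.08 and 1.43, and the mean of 0.76 ± 0.95 rests on the second array. In the mutants *MRP49* had -0.24 and 0.47 (*ptc6*) and 0.21 and 0.07 (*ptc1 ptc6*). *MRP7* (YNL005C), the counterpart of L27, was positive on all arrays, with 0.54 and 0.74 in wild type, 0.81 and 0.41 in *ptc6*, and 0.34 and 0.99 in *ptc1 ptc6* cells. *MRP20* (YDR405W), the counterpart of L23 and like *MRPL40* a protein of the tunnel exit, had 0.56 and 0.41 in wild type cells. *MRPL28* (YDR462W) had 0.30 and 0.44. The highest genes of the small subunit in wild type cells were *MRP51* (YPL118W), with a mean of 0.34, *RSM10* (YDR041W; 0.26), related to bacterial S10, the GTP-binding protein gene *RSM23* (YGL129C; 0.09) and *MRPS18* (YNL306W; 0.005), related to S11.

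The subunits had similar medians in wild type cells. The median log2 ratio of 23 large subunit genes was -0.16 (-0.15 on array 1 and -0.11 on array 2), and that of 15 small subunit genes was -0.23 (-0.36 and -0.14). The median of the large subunit was 0.08 higher, with 0.13 as the SD of this difference between arrays. Past 2-fold were 3 of the 23 large and 2 of the 15 small subunit genes. The large subunit was more spread, with an interquartile range of 0.94 against 0.48 log2 units. In *ptc6* cells the medians were -0.13 for 29 large and -0.06 for 17 small subunit genes, and in *ptc1 ptc6* cells -0.09 for 29 and -0.03 for 19 genes. In both mutants the large subunit was thus the lower one by the medians, by 0.07 and 0.06 log2 units, but among the 37 genes measured on all 6 arrays it was the higher one in each strain, by 0.10 in wild type, 0.05 in *ptc6* and 0.10 in *ptc1 ptc6* cells. In wild type cells the sign turned as well (-0.01) when a value on 1 array sufficed, so the data give no order of the subunits.

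A division by descent gave a similar picture. The 24 genes with a bacterial counterpart that had a value in wild type cells had a median of -0.19, and the 13 mitochondria-specific genes one of -0.43. In *ptc6* cells these medians were -0.06 (28 genes) and -0.26 (16 genes), and in *ptc1 ptc6* cells -0.05 (30 genes) and -0.27 (16 genes). The median of the mitochondria-specific genes was the lower one in the 3 strains, by less than the interquartile range of either set in any strain.

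In *ptc6* cells 2 of 46 genes were repressed more than 2-fold (4.35%), against 14.2% of all ORFs in this strain, and 0 were induced, against 10.6%. These 2 genes, *RSM26* and *MRPL32*, were also repressed in wild type cells. The median log2 ratio was -0.09 (-0.14 on array 1 and -0.06 on array 2), below the 0.07 of all ORFs. In *ptc1 ptc6* cells 1 of 48 genes, *RSM26*, was past 2-fold (2.08%) against 15.2% of all ORFs, and 0 were induced, against 12.2%. This count became 3 without array 1 (with *MRPL32* and *MRPL35*, whose means were -0.95 and -0.99), 2 without array 2 (with *IMG2*) and 2 with centred arrays (with *MRPL35*). The median was -0.08, with -0.11 and -0.13 on the arrays, below the 0.03 of all ORFs. Outside chromosomes XII and XIII the repressed shares of all ORFs were 13.7% in *ptc6* and 14.6% in *ptc1 ptc6* cells, and the induced shares were 10.3% and 12.1%.

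Genes that lacked a wild type value on both arrays contributed to the mutant medians, and their values were also small. *MRPL31* (YKL138C), named like the others of this paragraph after its values were seen, had -0.51 on 1 wild type array, -0.27 and -0.28 in *ptc6* and -0.70 and -0.76 in *ptc1 ptc6* cells. *RSM22* (YKL155C), which resembles RNA methyltransferases, had -0.32 on 1 wild type array, 0.08 and -0.40 in *ptc6* and -0.98 and -0.35 in *ptc1 ptc6* cells. The arrays of *IMG2* (YCR071C) in *ptc1 ptc6* cells had opposite signs (-1.13 and 0.37), the widest gap in the set, so that its mean of -0.38 ± 1.06 gives no direction. *MRP17* and *RSM19* were measured in *ptc1 ptc6* cells only, with means of -0.20 and 0.26, and *MRPL19* on a single array of this strain (-0.58).

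Among the 37 genes measured on all 6 arrays, 16 had a negative mean in the 3 strains, 9 a positive one, and 12 changed sign between strains. Every array was negative for 15 genes and positive for 6. The lowest of the 3 means was that of wild type cells for 21 genes, of *ptc6* for 7 and of *ptc1 ptc6* for 9. These counts were not made over all ORFs, so they show no trait particular to the mitochondrial ribosome.

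**Figure D2:**
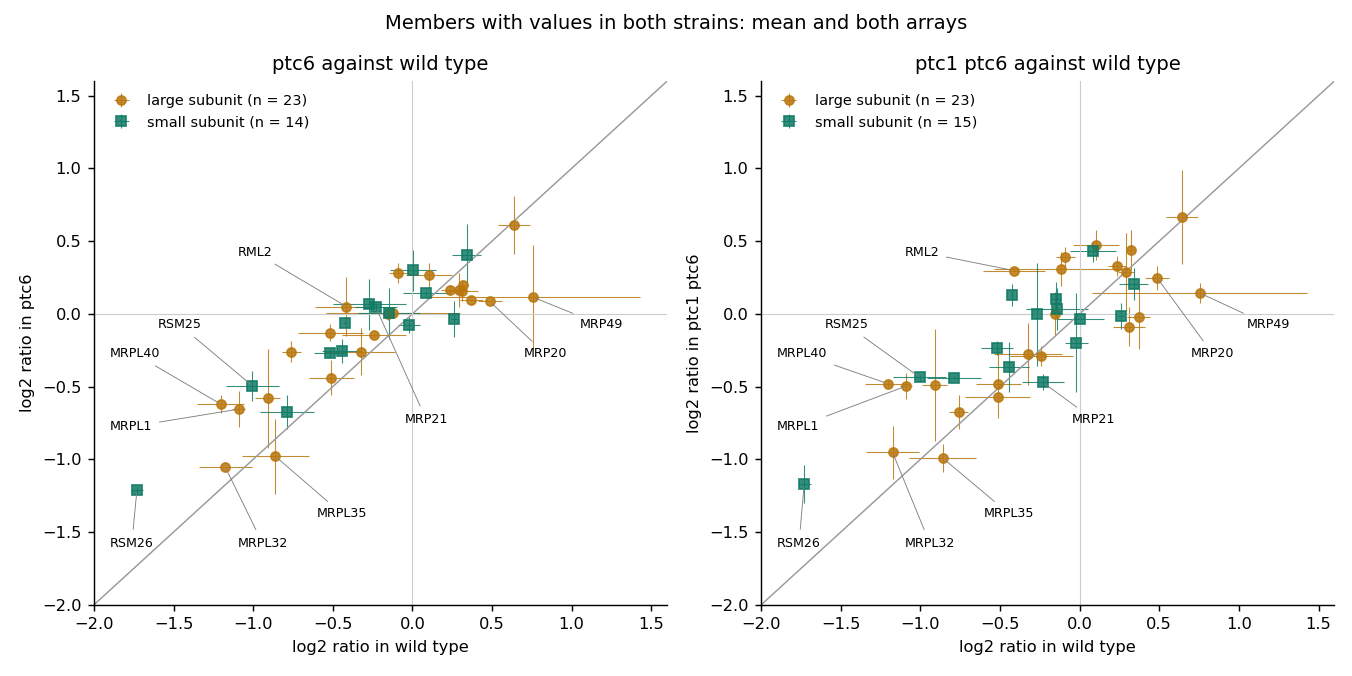
Mean log2 ratio of each gene in *ptc6* (left) or *ptc1 ptc6* cells (right, y axes) against wild type cells (x axes), circles for the large and squares for the small subunit. Bars span both arrays and the diagonal marks an equal response. *RSM26*, *MRPL40*, *MRPL1* and *RSM25* lay above the diagonal in both mutants, while *MRPL32* and *MRPL35* lay closer to it.

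Gene by gene, 37 could be compared between *ptc6* and wild type cells. The median of the *ptc6* minus wild type difference was 0.13 log2 units, with quartiles of -0.06 and 0.34. Leaving out array 1 of the wild type turned it to -0.015 and leaving out array 2 raised it to 0.235. Either step sets 1 dye orientation of the wild type against both of *ptc6*, so array and dye cannot be told apart there. The difference was 0.23 on the arrays with rapamycin RNA in Cy3 and 0.06 on those with rapamycin RNA in Cy5, and over all ORFs it was 0.05. The ratio was higher in *ptc6* cells for 26 genes (70.3%, against 57.0% of all ORFs) and lower for 11. In 13 of the 37 (35.1%) both *ptc6* arrays lay above both wild type arrays, against 30.7% of all ORFs, and in 4 (10.8%) both lay below, against 17.5%. Outside chromosomes XII and XIII, these background shares were 29.2% and 18.2%. The counts were thus close to those of the whole array.

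The largest of these separated differences were those of *MRPL40* (0.59 log2 units higher in *ptc6*), *RSM26* (0.52), *RSM25* (0.51), *MRPL20* (0.50) and *RML2* (0.47). *MRPL20* (YKR085C), a mitochondria-specific protein of the large subunit, gave -0.70 and -0.82 in wild type cells, against -0.33 and -0.19 in the *ptc6* mutant. Its values in *ptc1 ptc6* cells, -0.79 and -0.56, overlapped those of the wild type. *RML2* (YEL050C) codes for the counterpart of L2, a protein of the peptidyl transferase centre. Its ratios were -0.61 and -0.22 in wild type, -0.15 and 0.25 in *ptc6*, and 0.30 and 0.30 in *ptc1 ptc6* cells. No arrays of different strains overlapped, but the SD of 2 arrays was 0.28 in both wild type and *ptc6* cells. The *ptc6* mean of 0.05 also changed sign (-0.15) without array 2, so a graded order of the strains is not settled.

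The 4 genes that were separately lower in *ptc6* cells were all slightly above 0 in wild type cells. *MRP20* gave 0.08 and 0.09 in *ptc6* cells, 0.40 below its wild type mean, and the difference was -0.30 for *RSM10*, -0.28 for *MRPL28* and -0.13 for *MRPL27* (YBR282W). Of these, *MRP20*, *RSM10* and *MRPL28* were also separately lower in *ptc1 ptc6* cells, with differences of -0.24, -0.28 and -0.39. Both mutants were compared with the same wild type arrays, so these differences are not independent of each other.

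**Figure D3:**
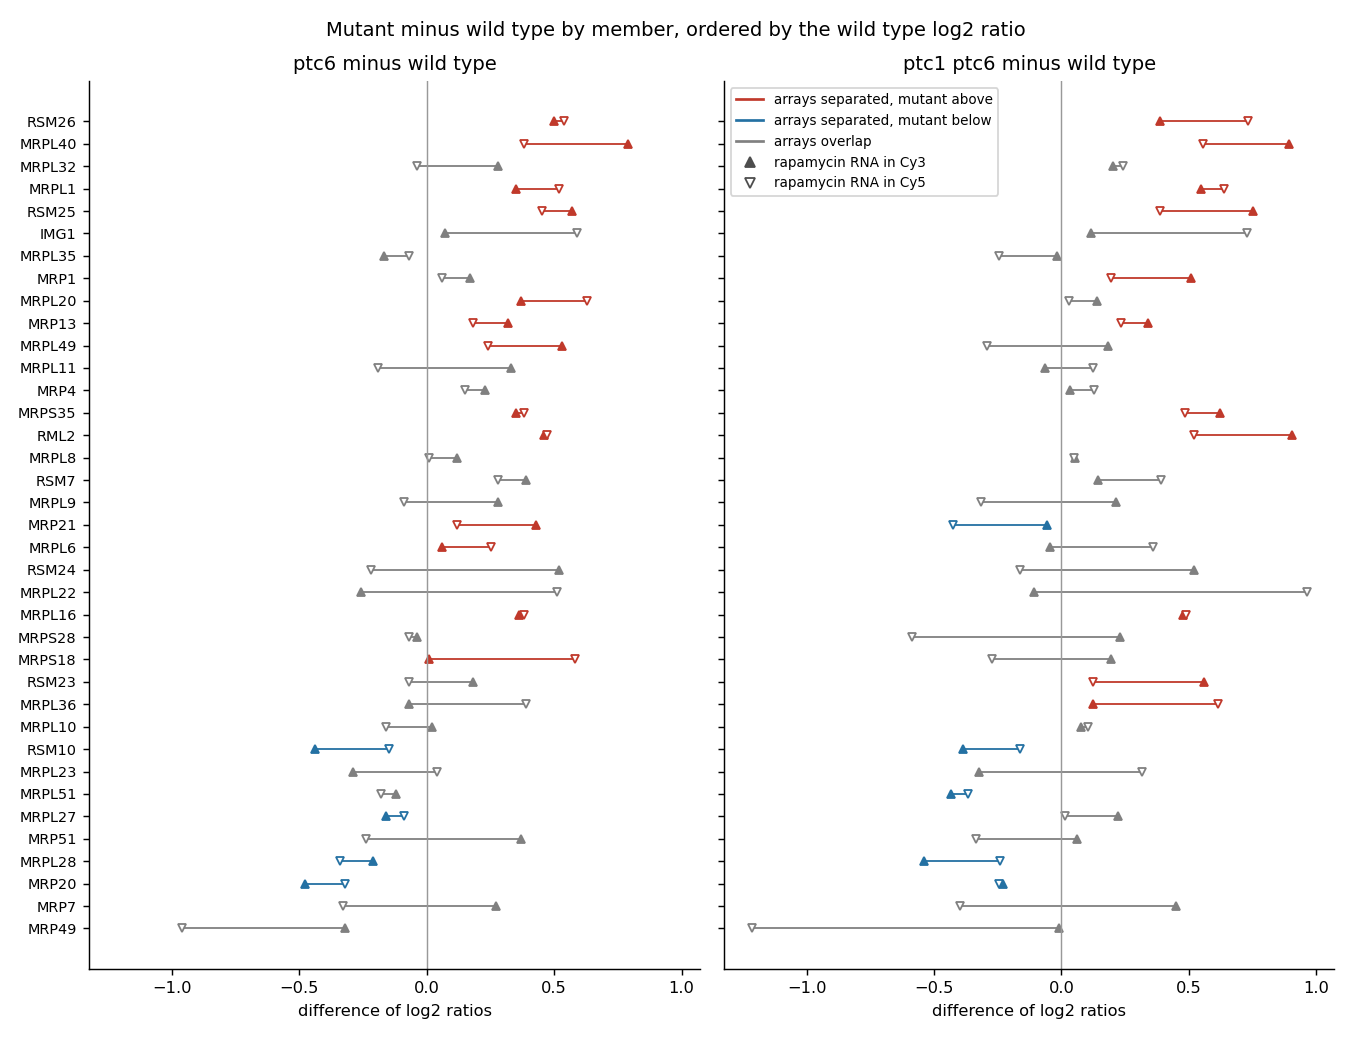
Mutant minus wild type difference of log2 ratios (x axis) of the 37 genes measured in full in *ptc6* and wild type cells, from the lowest wild type mean at the top to the highest at the bottom. Triangles give the arrays with rapamycin RNA in Cy3 (filled) and in Cy5 (open), and colours mark genes whose mutant arrays all lay above (red) or below (blue) the wild type arrays. Genes at the top lay mostly to the right of 0, and for *MRPL22* and *MRP49* the dye orientations were far apart.

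For *ptc1 ptc6* cells 38 genes could be compared with wild type cells, and the median difference was 0.10 log2 units, with 0.14 on the arrays with rapamycin RNA in Cy3 and 0.12 on those with it in Cy5. It ranged from 0.0475 without wild type array 1 to 0.264 without *ptc1 ptc6* array 2. Over all ORFs the median difference was -0.03. In 12 genes (31.6%) both *ptc1 ptc6* arrays lay above both wild type arrays, against 21.7% of all ORFs and 19.3% outside chromosomes XII and XIII. In 5 genes (13.2%) both lay below, against 25% and 23.1%. The largest separated differences were those of *MRPL40* (0.73), *RML2* (0.71), *MRPL1* (0.59), *RSM25* (0.57) and *RSM26* (0.56). *MRPL51* (YPR100W; -0.40), *MRPL28*, *RSM10*, *MRP21* (-0.24) and *MRP20* were the 5 that were lower. *MRPL51* overlaps the dubious ORF YPR099C, and PCR-made spots do not tell the strands apart.

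The mutants were close to each other by the median. Across 45 genes they correlated with a Pearson r of 0.855 and a Spearman rho of 0.840, against r = 0.969 over all ORFs outside chromosomes XII and XIII. The median *ptc1 ptc6* minus *ptc6* difference over 45 genes was 0.03 log2 units, against -0.09 over all ORFs. In *ptc1 ptc6* cells 12 genes were separately higher (26.7%, against 14.3% of all ORFs and 11.5% outside chromosomes XII and XIII). Another 6 were separately lower (13.3%, against 27.9% and 25.7%). The sign of the median over the mitochondrial ribosome turned (-0.027) without *ptc1 ptc6* array 1, and it was 0.108 without *ptc6* array 2. Both steps leave the dyes unequal between the strains. With arrays of the same dye compared, the median over the 45 genes was 0.057 in Cy3 and 0.051 in Cy5. *MRP21* (YBL090W), the counterpart of S21, had the largest difference. It gave -0.36 and -0.10 in wild type, 0.07 and 0.02 in *ptc6*, and -0.53 and -0.42 in *ptc1 ptc6* cells, without overlap between any pair of strains. *MRPL31* (-0.46), *MRPL49* (-0.44) and *MRPL20* (-0.41) were also lower in *ptc1 ptc6* than in *ptc6* cells, and *MRPL22* (0.30) and *MRPS5* (0.29) were the highest on the other side. These genes were named after their values were seen.

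Loss of Ptc6 came with a mean nearer to 0 for 30 of 37 genes (81.1%), against 69.1% of all ORFs, and the SD over these genes was 0.41 in *ptc6* and 0.57 in wild type cells. Across the 37 genes both strains correlated with a Pearson r of 0.890 and a Spearman rho of 0.882. Of the 24 genes below 0 in wild type cells 22 were higher in *ptc6* cells (91.7%, median difference 0.26), against 80.0% of all ORFs with a median of 0.25, and of the 13 above 0, 9 were lower (median difference -0.13), against 1086 of 1652 ORFs with a median of -0.10. The medians of the mitochondrial ribosome were thus near those of the whole array. A split by the wild type value shares its measurement error with the difference. When the genes were instead divided by their value in *ptc1 ptc6* cells, which is not part of the difference, 17 of 22 genes below 0 were higher in *ptc6* cells (77.3%, median 0.22), against 72.8% of all ORFs with a median of 0.20. The 15 genes above 0 in *ptc1 ptc6* cells had a median difference of 0.07, with 9 higher and 6 lower, whereas all ORFs above 0 had a median of -0.06.

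The same division was made for *ptc1 ptc6* cells. Of 25 genes below 0 in wild type cells, 20 were higher in *ptc1 ptc6* cells (80.0%), with a median difference of 0.25, against 62.3% of all ORFs and a median of 0.10. Split by the *ptc6* value, 13 of 18 genes below 0 were higher in *ptc1 ptc6* than in wild type cells (72.2%), with a median of 0.15, against 59.3% of all ORFs and a median of 0.07. Of 13 genes above 0 in wild type cells, 8 were lower in *ptc1 ptc6* cells, with a median of -0.04 against -0.15 for all ORFs. Split by the *ptc6* value, 10 of 18 genes above 0 were higher, with a median of 0.06 against -0.12 for all ORFs. The 38 genes correlated between both strains with r = 0.820 and rho = 0.784, and 25 of them (65.8%) were closer to 0 in *ptc1 ptc6* cells, against 60.1% of all ORFs.

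By subunit, the *ptc6* minus wild type difference had a median of 0.10 over 23 large subunit genes and of 0.22 over 14 small subunit genes. Higher in *ptc6* cells were 14 of the large (60.9%) and 12 of the small subunit genes (85.7%), against 57.0% of all ORFs. The arrays with rapamycin RNA in Cy3 and in Cy5 gave medians of 0.07 and 0.01 for the large subunit, and of 0.34 and 0.14 for the small subunit. For *ptc1 ptc6* minus wild type, the medians were 0.09 over 23 large and 0.25 over 15 small subunit genes. The small subunit had the larger median in both cases, but for *ptc6* cells its value on the dye orientations differed by more than the subunits did, and both comparisons share the wild type arrays.

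**Figure D4:**
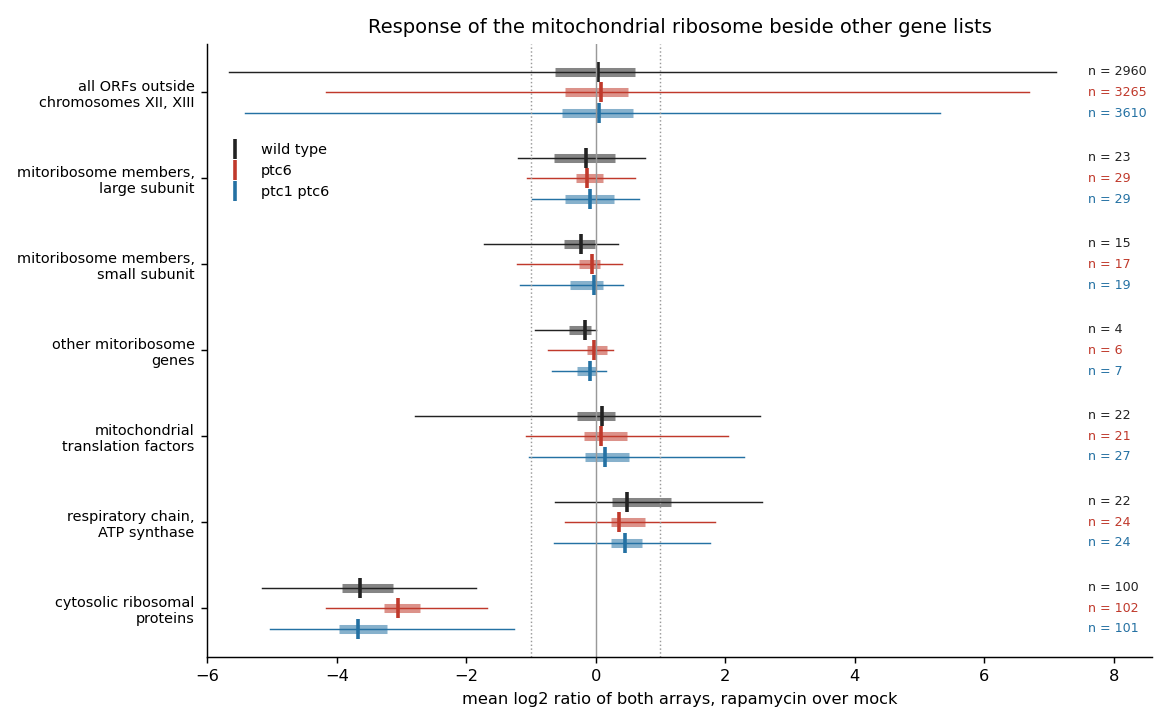
Mean log2 ratio (x axis) over the genes of each list in wild type (black), *ptc6* (red) and *ptc1 ptc6* cells (blue). Ticks are medians, thick bars the interquartile range, thin lines the full range, n the genes with a value, and dotted lines mark 2-fold. Both subunits of the mitochondrial ribosome sat around 0, the respiratory chain above 0, and the cytosolic ribosomal proteins between -5.15 and -1.26 in every strain.

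The cytosolic ribosome gave the sharpest contrast. All 100 cytosolic ribosomal protein genes outside chromosomes XII and XIII with a wild type value were repressed more than 2-fold, against 18.8% of all ORFs. Their median was -3.64 (quartiles -3.92 and -3.14), and their range did not overlap that of the mitochondrial ribosome. The lowest gene of the mitochondrial ribosome, *RSM26* (-1.73), lay above the weakest cytosolic one, *RPL22B* (-1.70 and -1.99). The strains also differed in another way for the cytosolic genes, whose median *ptc6* minus wild type difference was 0.58 and whose *ptc1 ptc6* minus wild type difference was -0.04. For the mitochondrial ribosome the corresponding medians, 0.13 and 0.10, were near each other. Cytosolic genes were separately lower in *ptc1 ptc6* than in *ptc6* cells in 83 of 100 cases (83.0%). For the mitochondrial ribosome this held for 6 of 45 genes (13.3%), and for 27.9% of all ORFs.

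A list of 32 nuclear genes of the respiratory chain and the ATP synthase lay on the other side of 0. Of 22 with a wild type value, 7 were induced more than 2-fold (31.8%, against 14.7% of all ORFs) and 0 repressed (against 18.8%). Their median was 0.49. The highest was *COX5B* (YIL111W), a subunit of cytochrome c oxidase used at low oxygen, with 2.40 and 2.75 in wild type, 1.65 and 2.04 in *ptc6*, and 1.80 and 1.73 in *ptc1 ptc6* cells. *RIP1*, the Rieske iron-sulphur protein, had a wild type mean of 1.42, and the lowest gene was *SDH3* (-0.63). The medians in the mutants were 0.37 in *ptc6* and 0.45 in *ptc1 ptc6* cells (24 genes each). In *ptc6* cells 2 were induced (8.3%, against 10.6% of all ORFs), and in *ptc1 ptc6* cells 4 (16.7%, against 12.2%). Both shares were near the background.

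Other genes of mitochondrial translation also stayed mostly within 2-fold. Of 36 genes for translation factors, tRNA synthetases, translational activators and assembly factors, 22 had a wild type value, with a median of 0.10. Of these, 1 was repressed (4.5%, against 18.8% of all ORFs) and 2 were induced (9.1%, against 14.7%). The GTPase gene *MTG2* (YHR168W), which acts in assembly of the large subunit, was the clearest exception. It was induced on every array, with 2.57 and 2.52 in wild type, 2.42 and 1.68 in *ptc6*, and 2.11 and 2.48 in *ptc1 ptc6* cells. *ATP22*, an activator of translation of an ATP synthase message, had a wild type mean of 1.47. The lowest mean, -2.79 for *MAM33* (YIL070C), came from 1 wild type array (-5.16, against -0.41 on the other), and its mutant values lay between -0.19 and -0.06. In the mutants 1 of 21 genes in *ptc6* (4.8%, against 14.2% of all ORFs) and 1 of 27 in *ptc1 ptc6* cells (3.7%, against 15.2%) was repressed past 2-fold. This was *DIA4* in both (-1.08 and -1.03), a gene for a probable mitochondrial seryl-tRNA synthetase. *DIA4* had -1.22 and -0.63 in wild type cells, which overlapped the values of both mutants.

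A further 13 genes of the mitochondrial ribosome outside the set of 55, among them *PET123*, *NAM9* and *MNP1*, were measured in part. The 4 with a wild type value ranged from -0.94 to 0 with a median of -0.16, and 0 of them were past 2-fold in any strain. The lowest was *MNP1* (YGL068W), the counterpart of the bacterial stalk protein, with -0.95 and -0.92 in wild type, -0.83 and -0.63 in *ptc6*, and -0.62 and -0.74 in *ptc1 ptc6* cells. Its partner in the stalk base, *MRPL11* (YDL202W; L10), had a wild type mean of -0.51, with -0.44 in *ptc6* and -0.48 in *ptc1 ptc6* cells.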

How the data were processed

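The deposited log2 ratios of rapamycin-treated over mock-treated cells were used as given. Per the labels and the methods, the authors hybridized cDNA to arrays of PCR-amplified ORFs, scanned them, dropped spots smaller than 120 µm across or dimmer than 150 units, and preprocessed the data with GEPAS. The normalization within arrays is not given in the sources used here, intensities were not used here, and precision is limited by having 2 arrays per strain. The direction, rapamycin over mock, follows the titles in the labels. Both arrays of each strain correlate positively although the dyes are exchanged, so they share one orientation, which does not by itself show which one.

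The mean of both arrays was taken per strain, with 2-fold as the threshold as in the study's methods. Arrays were called separated where both values of one strain exceeded both of the other. No test was run. The median over a list stands beside that over all ORFs. Symbols were taken from the R64 annotation (5639 of 6212 ORFs matched), which served for names and neighbours only. Named genes are those past 2-fold in any strain, and the 4 lowest and 4 highest of each subunit in wild type cells. Also named are the 5 largest separated differences of each mutant from wild type in each direction, genes without values, and at most 3 genes of each other list. *DIA4* and *MRPL11* were named outside these rules with their values known, as were genes marked so where they appear. Members and lists were chosen with earlier results of these data known, and list contents come from general knowledge. Alternatives were a value on at least 1 or on all 6 arrays, median-centred arrays, linear means, other thresholds, single dye orientations, a minimum difference, other subunit membership and leaving out each array. The steps were tested on simulated data. Python 3.11.15, numpy 2.4.6, pandas 2.3.3 and matplotlib 3.10.9 were used.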

Additional observations from a re-analysis of the deposited data

Results flagged for a closer look

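In 4 genes every array of one strain lay above 0 and every array of another lay below 0. None of these differences was tested, and both mutants share the wild type arrays. The share of all ORFs that meet this rule was not computed, so the count shows no trait particular to the mitochondrial ribosome. *MRPL16*, the counterpart of L16, was below 0 in wild type cells (-0.15 and -0.03) and above 0 in *ptc6* (0.21 and 0.35) and *ptc1 ptc6* cells (0.46 and 0.33), with differences of 0.37 and 0.48. *MRP21* was higher in *ptc6* than in wild type cells by 0.28 and lower in *ptc1 ptc6* than in *ptc6* cells, with a difference of -0.52. *RML2* was below 0 in wild type and above 0 in *ptc1 ptc6* cells, a difference of 0.71. *MRPS35*, a mitochondria-specific protein of the small subunit, had -0.42 and -0.43 in wild type, -0.07 and -0.05 in *ptc6*, and 0.06 and 0.20 in *ptc1 ptc6* cells, so that *ptc1 ptc6* cells differed by 0.56 from wild type and by 0.19 from *ptc6* cells.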

How the results depend on the processing

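No paired analysis was possible because the values come from no test: it is not stated whether arrays with the same experiment number, which carry opposite dyes in *ptc1 ptc6* and the other strains, share anything across strains, and the arrays of a strain were counted as 1 replicate by choice. Of 111 alternative values of the 21 summary values, 80 were called unchanged and 31 moved. Values with 1 array left out are given below and are not among the 111. Medians were called unchanged within their SD between arrays, and counts if equal or within a factor of 1.5. Of 528 alternative values of single genes, which include those without 1 array, 39 changed sign, 29 without 1 array and 10 under other settings. All came from means of at most 0.383 in size, and none from a gene past 2-fold. With a value on at least 1 array the *ptc1 ptc6* minus wild type median was 0.0905. With arrays centred on their median, the medians were -0.16 in *ptc6* and -0.13 in *ptc1 ptc6* cells, 2 genes were repressed in *ptc1 ptc6* cells, and *ptc1 ptc6* differed by 0.0883 from wild type and by 0.0518 from *ptc6* cells. Over genes measured on all 6 arrays, the *ptc6* median was 0.00 and the *ptc1 ptc6* median -0.033, the large minus small subunit difference was 0.0525 and 0.0958, and *ptc1 ptc6* differed by 0.0905 from wild type and by 0.037 from *ptc6* cells. At 1.5-fold, 9 genes were repressed and 2 induced in wild type, 6 and 1 in *ptc6*, and 6 and 1 in *ptc1 ptc6* cells. At 3-fold, 1, 0 and 0 were repressed. In Cy3 *ptc1 ptc6* differed by 0.142 from wild type and by 0.0553 from *ptc6* cells, and in Cy5 by 0.123 and 0.0525. Requiring a difference over 0.5 as well left 3 genes higher and 0 lower in *ptc6* and 6 higher and 0 lower in *ptc1 ptc6* than in wild type cells, and 0 higher and 1 lower in *ptc1 ptc6* than in *ptc6* cells. Shares of all ORFs past a threshold or separated were computed for the main settings only. The gene counts under these alternatives, and those without 1 array, thus have no background beside them. Splitting by the strain outside the comparison, an alternative chosen after seeing the data, turned the median difference of genes above 0 from -0.125 to 0.065 for *ptc6* and from -0.038 to 0.0583 for *ptc1 ptc6*. The cause of these changes was not tested.

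Leaving out 1 array at a time gave 4 to 6 repressed and 0 to 1 induced genes in wild type, 2 to 3 and 0 in *ptc6*, and 2 to 3 and 0 in *ptc1 ptc6* cells. Medians ran from -0.35 to -0.14 in wild type, -0.14 to -0.05 in *ptc6* and -0.13 to -0.11 in *ptc1 ptc6* cells, and the large minus small subunit difference from -0.02 to -0.015, -0.08 to -0.025 and -0.101 to 0.012. The *ptc6* minus wild type median ran from -0.015 without wild type array 1 to 0.235 without wild type array 2, with 15 to 25 genes separately higher and 6 to 12 lower. The *ptc1 ptc6* minus wild type median ran from 0.0475 without wild type array 1 to 0.264 without *ptc1 ptc6* array 2, with 16 to 23 higher and 7 to 10 lower. Between the mutants the median ran from -0.027 without *ptc1 ptc6* array 1 to 0.108 without *ptc6* array 2, with 14 to 24 higher and 8 to 15 lower. With 1 array left on a side, separation is easier to reach. Signal over background is unknown here, and the spread between cultures may not have been measured.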
